A study of Homo sapiens with 3 samples.

Results

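Heparanase, its inactive relative heparanase 2, the EXT1 and EXT2 polymerase subunits, the 4 syndecans and the glypicans GPC1 and GPC4 are described here in HCT116 cells after knockdown of SMARCA4. Members were chosen by name, and the arrays carry 13 probes for these 10 genes among 58171 probes with 43299 gene names. HPSE is one of the genes that the study selected by a 1.5-fold decrease on these arrays, among other data, and the other members were chosen with results of the arrays known. The values below are therefore descriptions, and no test was run on them. Gene expression was profiled to look for genes that depend on SMARCA4, the ATPase of the SWI/SNF chromatin remodelling complex.

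HCT116 is a colorectal cancer cell line. The cells were transfected with small interfering RNA against SMARCA4 with a Lipofectamine reagent (SMARCA4-KD1 and SMARCA4-KD2) or with a scrambled negative control (NC), and 1 array was made per condition. The hours between transfection and harvest are not given in the sources used here. The labels give 2 interfering RNAs against SMARCA4 and do not say which of them was used for SMARCA4-KD1.

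The sample titles name SMARCA4 and the treatment field names PRMT1, so both genes were read first. The SMARCA4 probe reached 14026 in NC, against 3960.2 (SMARCA4-KD1) and 4129 (SMARCA4-KD2), so that 26.6% and 28.8% of the NC level were left. PRMT1 was at 120.3% and 129% of the NC level. Both knockdown arrays came from 1 scan and the NC array from another, so that scan and condition cannot be told apart in any comparison with NC. Between 45.7% and 47.3% of the probes per array were well above background. Of the 10 colorectal epithelial markers, 8 had a probe well above background, KRT8, KRT18, KRT19 and EPCAM among them, while VIL1 and CEACAM5 had none. Of 12 stromal, endothelial and immune markers, 11 of which are on the array under the names used, 4 had such a probe (COL1A1, CDH5, VWF and PTPRC).

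Heparan sulfate is a long, sulfated sugar chain attached to core proteins at the cell surface and in the matrix. EXT1 and EXT2 together polymerise the chain. Syndecans are core proteins that span the membrane, whereas glypicans are held on its outer face by a lipid anchor. Heparanase, encoded by HPSE, is the endoglycosidase that cuts these chains, releases growth factors bound to them and is known for its part in tumour invasion. Heparanase 2 binds heparan sulfate but does not cut it.

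Each probe is a 60-base oligonucleotide, and 3 of them are shown because HPSE, HPSE2 and SDC3 were each read by more than 1 probe, on separate stretches of the transcript. Positions are those of the array files, in hg19, and the probes of these 3 genes lie on the minus strand. An annotation of hg19 was not used here, so exons and UTRs are named only where a sequence shows them. The HPSE probe A_23_P256107 spans chr4:84223390-84227383, 3994 bases of genome, and so joins 2 exons. The HPSE2 probe A_24_P103893 lies at chr10:100242467-100242526 and has no stop codon in any of its 3 frames. The SDC3 probe A_33_P3241884 lies at chr1:31346038-31346097, and its 15 capital letters mark the last 4 codons of the protein, part of the conserved syndecan tail that binds PDZ proteins, and the stop codon.
HPSE A_23_P256107: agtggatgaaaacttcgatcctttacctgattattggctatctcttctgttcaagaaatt
HPSE2 A_24_P103893: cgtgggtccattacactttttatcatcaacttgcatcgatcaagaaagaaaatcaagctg
SDC3 A_33_P3241884: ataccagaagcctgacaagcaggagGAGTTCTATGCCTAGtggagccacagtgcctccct

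The processed signal of a spot is its brightness after background subtraction, and levels were compared between arrays as log2 of this signal relative to the 75th percentile of the array. A probe was kept where it was well above background on at least 1 array, which held for 11 of the 13 member probes and for 9 of the 10 genes. SDC2 was not kept. Of the 11 kept probes, 9 were well above background on all arrays. Each condition has 1 spot per member probe, so the only error known for a value is that given by the extraction software, about 0.20 on the log2 scale for a difference between bright spots. It leaves out the spread between cultures.

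HPSE was lower in both knockdowns on both of its probes. On A_23_P256107 the signal was 590.1 in NC, against 371.2 (SMARCA4-KD1) and 371.0 (SMARCA4-KD2). The other HPSE probe, A_21_P0000064, lies at chr4:84214216-84214275 and had signals of 295.5, 175.7 and 185.9 in the same order. On each probe the signals of the knockdown arrays lay close to each other and below NC. In bulk RNA, fewer cells with a transcript and less of it per cell cannot be told apart. Relative to NC, the A_23_P256107 level was 59.3% (SMARCA4-KD1) and 61.5% (SMARCA4-KD2), log2 changes of -0.75 ± 0.20 and -0.70 ± 0.20 (extraction error). The level on A_21_P0000064 was 56.1% and 61.5% of NC, log2 changes of -0.83 ± 0.21 and -0.70 ± 0.21. The second of these changes was -0.58 with normexp background correction, just short of 1.5-fold.

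The HPSE probes begin at bases 1315 and 3990 of the transcript, 2675 bases apart, so they read separate stretches of the message. Their mean changes differed by 0.040 on the log2 scale. Over the 4527 genes with at least 2 probes well above background on all arrays, the brightest and the next probe differed by a median of 0.198, and 87.0% of these genes had a larger difference than HPSE. These genes were not matched to HPSE in signal. The HPSE difference was also smaller than the extraction error of a single change, and both probes were read on the same arrays. Among all kept probes, 5.92% had a lower mean change than A_21_P0000064 and 6.77% had a lower one than A_23_P256107. HPSE thus lay in the lower part of the distribution, with many probes below it.

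HPSE2 was well above background only in the knockdowns, and only on 1 of its 2 probes. On A_24_P103893 the signal was 3.9 ± 3.93 in NC, against 51.5 ± 6.36 (SMARCA4-KD1) and 31.3 ± 4.69 (SMARCA4-KD2), each with its extraction error. The signals of the knockdown arrays lay far above that of NC, and SMARCA4-KD1 was the highest. Against the lowest signal well above background on the NC array, which was 17.7, the level was at least 2.75-fold higher (SMARCA4-KD1) and at least 1.73-fold higher (SMARCA4-KD2). The probe was kept only through the knockdown arrays, so a higher value there follows from the filter. With normexp background correction its log2 changes were 0.58 and 0.38, and the call of 1.5-fold in both knockdowns was lost. The other HPSE2 probe, A_23_P61707 at chr10:100219122-100219181, had signals between 3.3 and 3.5 and was not well above background on any array. The HPSE2 probes begin 449 bases apart in the transcript and did not give the same reading.

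**Figure D1:**
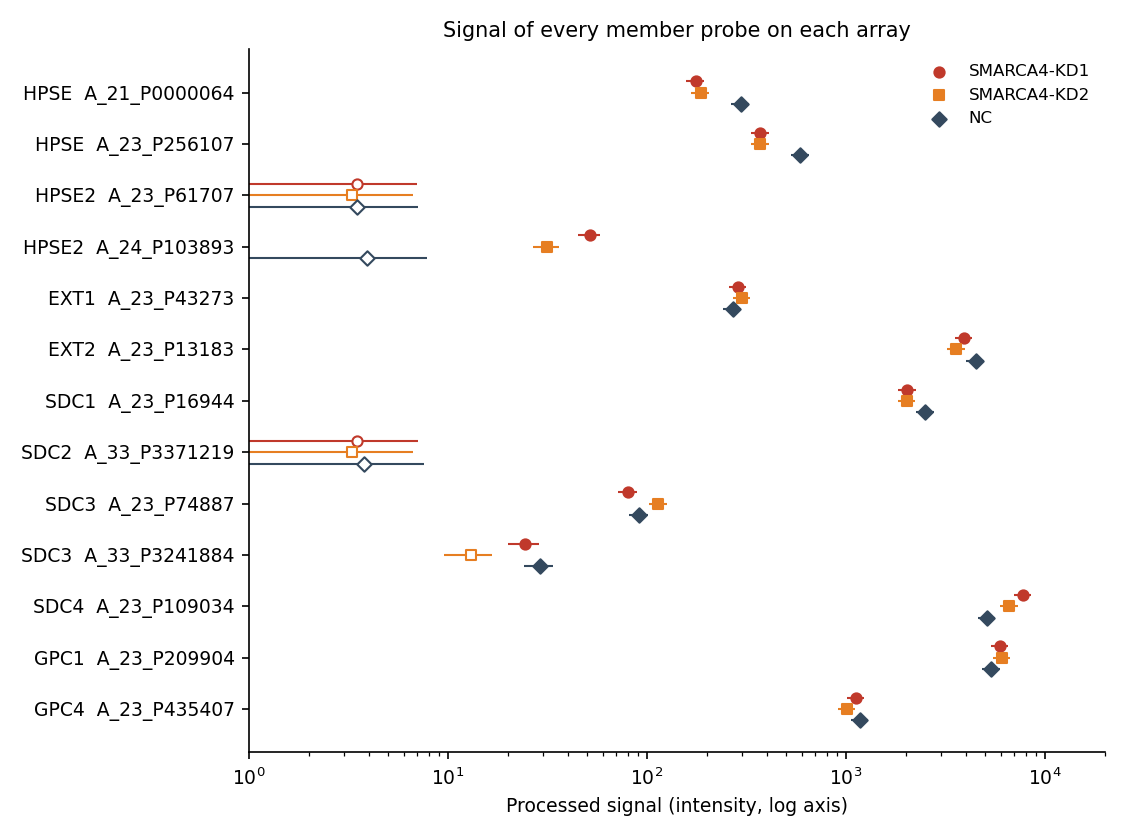
Processed signal (intensity, log axis) of each of the 13 member probes on the SMARCA4-KD1, SMARCA4-KD2 and NC arrays. Filled symbols are well above background and open symbols are not, and bars are the extraction error (those of the dimmest spots run past the left edge). Both HPSE probes are dimmer in the knockdowns than in NC, SDC4 is brighter, and HPSE2 A_24_P103893 is well above background only in the knockdowns.

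Both polymerase subunits stayed within 1.5-fold of NC. The EXT1 probe gave 269.3 in NC, against 287.3 (SMARCA4-KD1) and 300.5 (SMARCA4-KD2), and its log2 changes of 0.01 ± 0.21 and 0.13 ± 0.21 were within the extraction error. The EXT2 probe, at chr11:44266287-44266346, gave 4483 in NC, against 3912 and 3586. Its levels were 82.3% and 78.2% of NC, log2 changes of -0.28 ± 0.20 and -0.35 ± 0.20. EXT2 was below NC in both knockdowns by more than the extraction error, and short of 1.5-fold.

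Among the syndecans, SDC1, the main syndecan of epithelia, was below NC in both knockdowns and SDC4, the broadly expressed syndecan of focal adhesions, was above it. The SDC1 probe, at chr2:20401335-20401394, gave 2505 in NC, against 2035 (SMARCA4-KD1) and 2027 (SMARCA4-KD2). Its levels were 76.6% and 79.1% of NC, log2 changes of -0.38 ± 0.20 and -0.34 ± 0.20. The SDC4 probe, at chr20:43954578-43954637, gave 5114 in NC, against 7746 and 6636. NC was thus the highest of the conditions for SDC1 and the lowest for SDC4. Its level was 1.43-fold and 1.27-fold that of NC, log2 changes of 0.51 ± 0.20 and 0.34 ± 0.20. Neither change reached 1.5-fold.

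The probes of SDC3, best known as the syndecan of the nervous system, agreed in direction in SMARCA4-KD1 only. In SMARCA4-KD2, 1 of them was not well above background. The probe A_23_P74887, at chr1:31343241-31343300, gave 91.4 ± 10.0 in NC, against 80.1 ± 8.77 (SMARCA4-KD1) and 113.9 ± 11.9 (SMARCA4-KD2). NC lay between the knockdowns, with log2 changes of -0.27 ± 0.22 and 0.29 ± 0.22. The probe A_33_P3241884 gave 29.0 ± 4.79 in NC, against 24.3 ± 4.24 and 13.1 ± 3.6. It was not well above background in SMARCA4-KD2, where its level was at least 1.82-fold lower than in NC by the floor used, a log2 change of -0.87, but -0.27 with normexp background correction. In SMARCA4-KD1 its log2 change was -0.34 ± 0.35. In SMARCA4-KD2 the SDC3 probes thus lay on opposite sides of NC. They begin 2797 bases apart in the transcript. SDC2, typical of mesenchymal cells, had signals between 3.3 and 3.8, not well above background on any array.

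Both glypicans stayed within 1.5-fold of NC. The GPC1 probe, at chr2:241407118-241407177, gave 5381 in NC, against 5929 (SMARCA4-KD1) and 6064 (SMARCA4-KD2), with log2 changes of 0.06 ± 0.20 and 0.14 ± 0.20. The GPC4 probe, at chrX:132435429-132435488, gave 1178 in NC, against 1122 and 1012, with log2 changes of -0.15 ± 0.20 and -0.25 ± 0.20. GPC1 was within the extraction error in both knockdowns, and GPC4 was beyond it only in SMARCA4-KD2.

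**Figure D2:**
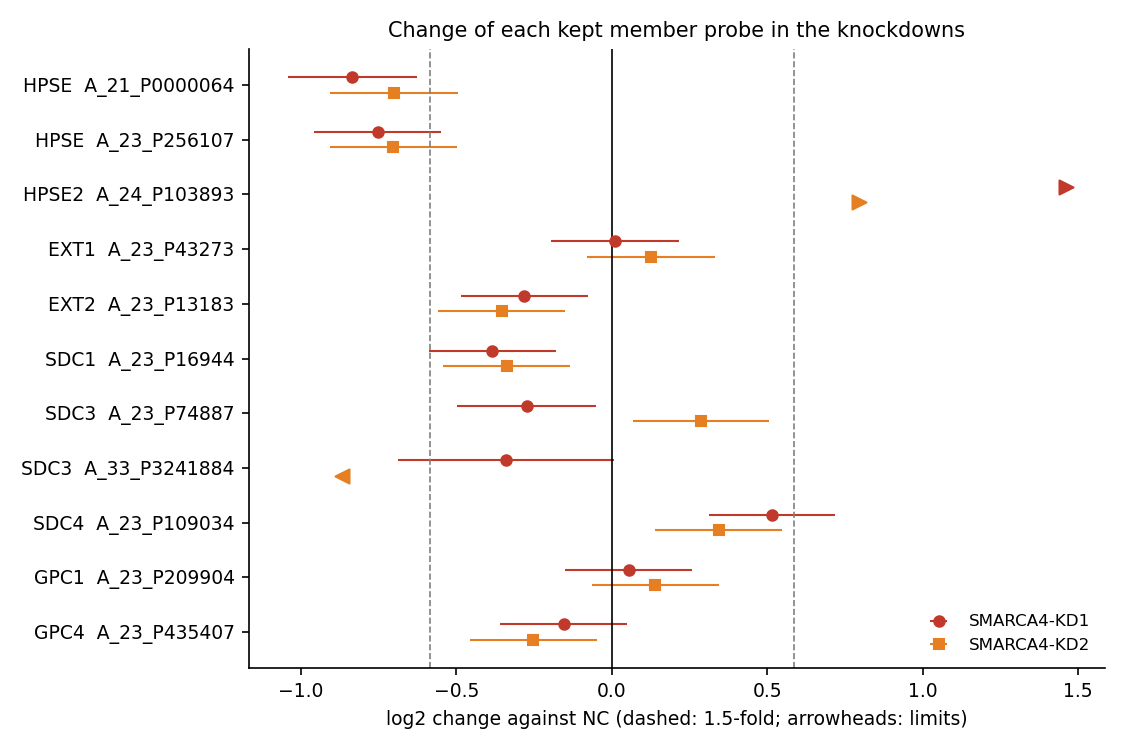
Log2 change of each kept member probe in SMARCA4-KD1 and SMARCA4-KD2 against NC, with the extraction error as bars, dashed lines at 1.5-fold and arrowheads for limits set by a spot not well above background. Both HPSE probes lie beyond 1.5-fold on the lower side in both knockdowns, and the SDC3 probe A_23_P74887 lies on opposite sides of 0.

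At 1.5-fold in both knockdowns, 2 of the 11 kept member probes were lower, both of HPSE, and 1 was higher, of HPSE2. Over all 29334 kept probes, 7.98% were lower and 6.58% were higher by this rule. HPSE was known to pass it, and the HPSE2 probe was kept only through the knockdown arrays, where it is higher. Neither count is a result about the members. At any size, 6 member probes were below NC in both knockdowns and 4 were above, beside 39.3% and 41.2% of all kept probes. The median log2 change of the member probes was -0.27 (SMARCA4-KD1) and -0.25 (SMARCA4-KD2), and that of all kept probes was 0.00 and 0.02. Taking the brightest probe of each gene, the members' median was -0.15 and 0.13, so its sign in SMARCA4-KD2 depended on how probes were counted. The tallies and medians include HPSE, selected for a decrease on these arrays, and the HPSE2 probe kept through the knockdowns. They are therefore no result about the members either. Both comparisons share the NC array, and an error of that array moves them together.

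The 2 knockdown arrays, which share a scan, gave a scale for differences that do not involve NC. Over the 6858 probes with a mean signal from 100 to 500 that were well above background on all arrays, SMARCA4-KD1 and SMARCA4-KD2 differed by a median of 0.136 on the log2 scale, and 95% differed by less than 0.434. The HPSE probes, which fall in this range, differed by 0.05 and 0.13 between the knockdowns, with SMARCA4-KD1 the lower. Their mean changes from NC were -0.73 and -0.77. In size, the mean change of all probes in this range had a median of 0.287 and a 95th percentile of 0.983. Over the 5813 probes with a mean signal of 2000 or more, the knockdowns differed by a median of 0.090, and 95% by less than 0.309. EXT2, SDC1, SDC4 and GPC1 belong here, with differences between the knockdowns of 0.07, -0.05, 0.17 and -0.08 (SMARCA4-KD1 minus SMARCA4-KD2). Their mean changes from NC were -0.32, -0.36, 0.43 and 0.10. The size of the mean change over these 5813 probes had a median of 0.25 and a 95th percentile of 0.823. The SDC3 probe A_23_P74887 had a difference of -0.56, in a range below a signal of 100 where 95% of 7171 probes differed by less than 0.688.

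**Figure D3:**
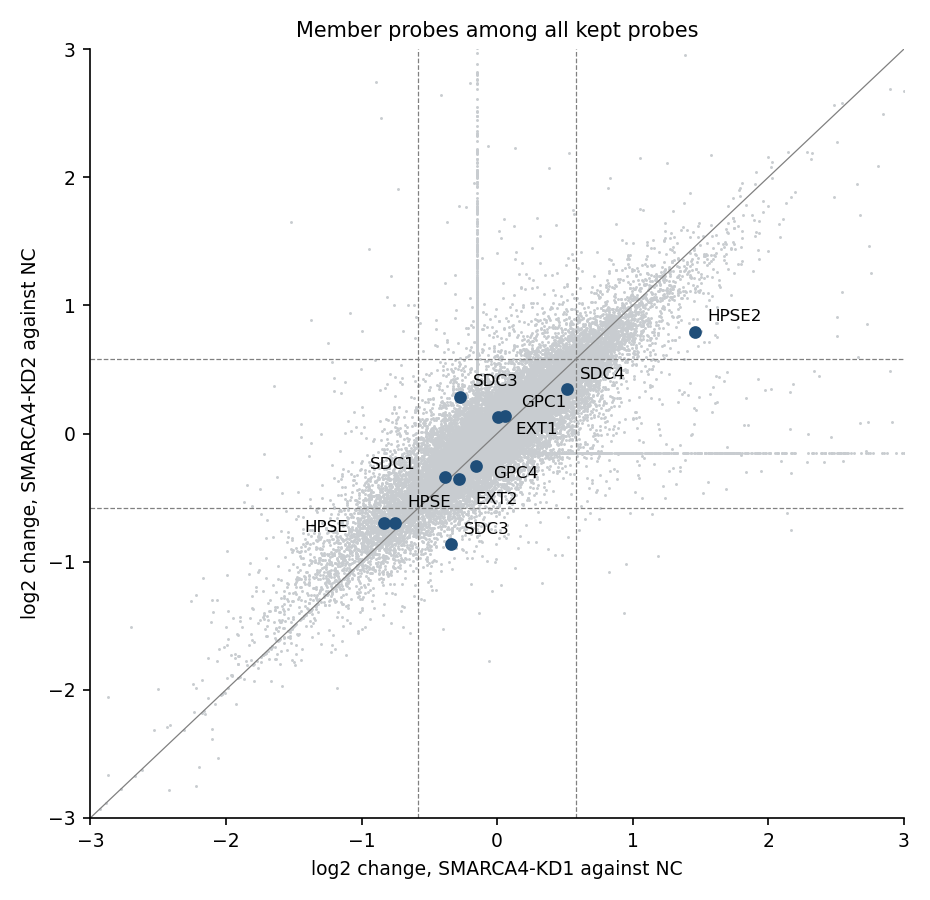
Log2 change in SMARCA4-KD1 (x axis) and SMARCA4-KD2 (y axis) against NC of all 29334 kept probes (grey) and the 11 kept member probes (blue), with dashed lines at 1.5-fold; 72 probes lie outside the axes, and the straight grey streaks are probes not well above background in NC and in 1 knockdown. The HPSE probes lie inside the grey cloud near its diagonal, at log2 changes between -0.83 and -0.70.

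The other genes that build, carry and break down heparan sulfate were read by the brightest kept probe of each gene, for which 8.03% of all 22620 genes were lower and 6.36% were higher at 1.5-fold in both knockdowns. Of 92 kept genes of the 7 lists, 7 were lower (7.61%) and 4 were higher (4.35%). Among 13 kept genes that build or modify the chain, SULF2, which removes 6-O-sulfates from chains outside the cell, was lower, with log2 changes of -1.12 and -0.99. NDST2, an enzyme that deacetylates and sulfates the growing chain, was higher, with log2 changes of 1.02 and 0.79, and HS3ST1, which adds 3-O-sulfates, had changes of 0.28 and 0.52. Of the 3 kept NDST2 probes, 2 passed 1.5-fold in both knockdowns. The mean over the kept NDST2 probes was 0.58 and 0.46, short of the threshold. The exostosin relatives EXTL2 and EXTL3 were above NC without reaching 1.5-fold in both. The list's median was 0.21 and 0.16, beside 0.00 and 0.02 over all genes.

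Of 14 kept genes that make the linker and the precursors, 1 was lower and none was higher. It was XYLT1, which starts the chain on the core protein and was not well above background in SMARCA4-KD1, with log2 changes of -1.99, a limit, and -1.39. Its relative XYLT2 had changes of 0.21 and 0.30. Of 10 other kept core proteins, 3 were lower, namely NRP1, a receptor that can carry the chain (-1.62 and -1.54), SPOCK3 (-0.61 and -0.73) and SPOCK1, which was kept only through NC, so that its lower value in the knockdowns follows from the filter. With normexp background correction XYLT1 (-0.79 and -0.62) and NRP1 (-0.80 and -0.78) still passed, and SPOCK1 (-0.16 and -0.23) and SPOCK3 (-0.20 and -0.20) did not. Only 1 of the 2 kept SPOCK3 probes passed. Its signals in the knockdowns (21.5 and 19.1) were near the lowest well above background on those arrays (16.9 and 16.2). With the mean over a gene's kept probes SPOCK3 did not pass (-0.52 and -0.57) and the glypican GPC3 did (-0.78 and -0.66). COL18A1, a basement membrane core protein, had changes of -0.18 and -0.16. XYLT1, SPOCK1 and GPC3, like EXTL2, EXTL3, HGSNAT, CTSL, SUMF1, SDCBP, SDCBP2 and ADAM17, fall outside the rule for named genes. They were named after their values were seen. The medians were -0.26 and -0.11 for the linker list and -0.23 and -0.15 for the core proteins.

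No gene of the 9 in the list for lysosomal breakdown, which are the enzymes that finish what heparanase begins and SUMF1, an activator of sulfatases, passed 1.5-fold in both knockdowns. GUSB, the lysosomal beta-glucuronidase, had log2 changes of -0.20 and -0.27, and the median of the list was -0.04 and -0.08. The largest change in the list was that of HGSNAT (-0.84 and -0.53), which passed 1.5-fold only in SMARCA4-KD1. None of the 14 syndecan partners and sheddases passed either. SDCBP2 was beyond 1.5-fold in each knockdown, but in opposite directions (1.185 and -0.955). Its signal was 40.2 in NC, against 97.0 (SMARCA4-KD1) and 21.2 (SMARCA4-KD2). CTSL, the protease that activates heparanase, had changes of -0.69 and -0.49 and passed only with quantile normalization (-0.81 and -0.61), syntenin (SDCBP), which binds the syndecan tail, had -0.16 and -0.07, and GIPC1, another protein that binds it, had -0.06 and 0.12. ADAM17, a sheddase of SDC1 and SDC4, had 0.60 and 0.48. Their median was -0.15 and -0.08.

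Of 17 kept ligands and receptors that bind heparan sulfate, 2 were higher and 1 was lower. The growth factors FGF2 (0.97 and 0.97) and AREG (1.09 and 1.16) were higher, and MET, the receptor of hepatocyte growth factor, was lower (-0.67 and -0.75). The median was 0.34 and 0.20. Of 15 kept genes of chondroitin sulfate, the other chain that syndecans carry, CSGALNACT1, which starts that chain, was lower (-1.99 and -1.10) and the sulfotransferase CHST14 was higher (2.76 and 1.25). For FGF2 and for CSGALNACT1 only 1 of 2 kept probes passed. The CSGALNACT1 signal in SMARCA4-KD1 was 17.9, near the lowest signal well above background on that array (16.9). CHST14 had 19.0 in NC, where that lowest signal was 17.7. With normexp background correction FGF2 had 0.61 and 0.64, and MET (-0.57 and -0.63), CSGALNACT1 (-0.83 and -0.56) and CHST14 (1.24 and 0.39) no longer passed in both knockdowns. CHPF, a subunit of the chondroitin sulfate polymerase, had changes of 0.18 and -0.01, and the median of that list was 0.10 and 0.09.

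**Figure D4:**
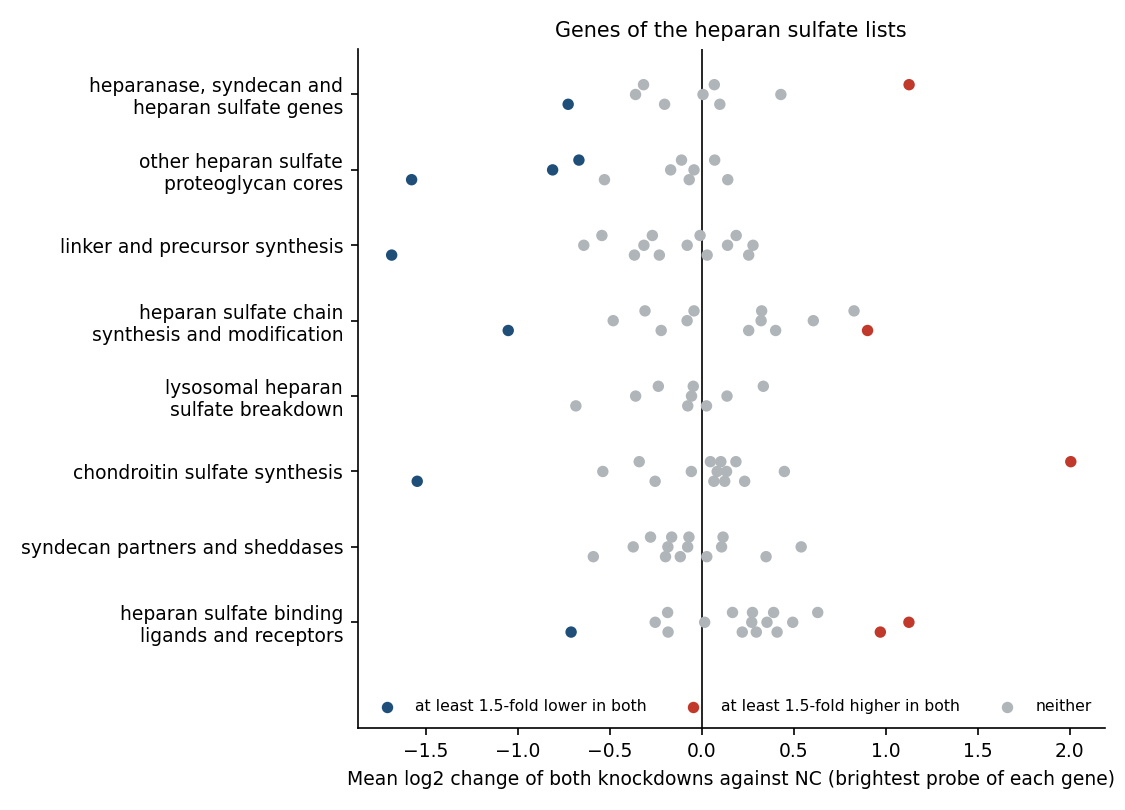
Mean log2 change of both knockdowns against NC for each kept gene (brightest probe), by list, with genes at least 1.5-fold lower in both knockdowns in blue, higher in red and the others in grey. HPSE is the blue point and HPSE2 the red point of the top row, and no gene of lysosomal breakdown or of the syndecan partners and sheddases is coloured.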

How the data were processed

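Total RNA of the SMARCA4-KD1, SMARCA4-KD2 and NC cells was labelled with Cy3 and hybridised to 1 array per condition, of Agilent's SurePrint G3 human design. The authors deposited scanner files in which Agilent Feature Extraction 10.7.1.1 (version from the submitters' processing notes) gives the intensity of each spot after detrending and subtraction of background, with no normalization across arrays, with its error and other columns of flags, which were used as deposited. A series-level table, also deposited as intensity, equals the scanner files within 0.1% for all 13 member probes. The study's methods name GeneSpring with a 1.5-fold threshold and a p-value, which was not computed here.

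Control spots and outlier spots were left out, which removed 30 of 58201 probes, and repeat spots were averaged on the log2 scale. The 75th percentile of each array over all non-control probes (intensities of 223.4 in NC, 236.9 in SMARCA4-KD1 and 228.5 in SMARCA4-KD2) was subtracted from log2 of the processed signal. A spot not well above background was raised to the lowest signal well above background on its array where it was below that, so its folds are limits. The extraction error was propagated to log2. The number of arrays limits the precision.

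Members and lists were chosen with earlier results of these data known. The named genes are all members, SMARCA4 and PRMT1, and of each other list the gene with the brightest probe in NC and those well above background on all arrays that were 1.5-fold lower or higher in both knockdowns. The steps were tested on simulated data in which every array had the same background flags. That test did not cover probes well above background on only some arrays. Alternatives were normexp background correction (offset 50, limma 3.58.1 in R 4.3.3), quantile normalization, another percentile, other filters, no floor, the series-level table, a 2-fold threshold and other rules for genes with several probes. Tables were handled with Python 3.11.15, numpy 2.4.6 and pandas 2.3.3, and figures were drawn with matplotlib 3.10.9. The sequences of the interfering RNAs are not reported here.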

Additional observations from a re-analysis of the deposited data

Results flagged for a closer look

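The SDC3 probe A_23_P74887 was below NC in SMARCA4-KD1 (signal 80.1 against 91.4) and above it in SMARCA4-KD2 (113.9). Its log2 changes of -0.27 ± 0.22 and 0.29 ± 0.22 were just beyond the extraction error. The knockdowns differed by -0.56 on the log2 scale (SMARCA4-KD1 minus SMARCA4-KD2). Of the 7171 probes below a signal of 100 and well above background on all arrays, 95% differed by less than 0.688. The other SDC3 probe was below NC in both knockdowns, as a limit in SMARCA4-KD2. The difference between the knockdowns on A_23_P74887 was not tested, since each knockdown has 1 array.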

How the results depend on the processing

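The log2 changes of both HPSE probes moved by less than the extraction error under all 7 alternatives run, from -0.89 to -0.69 and from -0.75 to -0.58 on A_21_P0000064 and from -0.81 to -0.67 and from -0.75 to -0.63 on A_23_P256107 (SMARCA4-KD1, then SMARCA4-KD2). With normexp background correction, member probes 1.5-fold lower in both knockdowns numbered 1 and higher ones 0, where 3.48% and 3.81% of all probes passed. At 2-fold both counts were 0. The higher count was also 0 with only probes well above background on all arrays, a filter that leaves HPSE2 out. With the brightest probe of each gene the members' median in SMARCA4-KD2 was 0.13. Of the list counts, normexp changed lower core proteins to 1, lower and higher chondroitin sulfate genes to 0 and 0, and lower ligands and receptors to 0. Quantile normalization changed lower linker genes to 2 and lower syndecan partners to 1. Averaging a gene's probes changed the higher count of chain synthesis genes to 0. The cause of these changes was not tested. The other 89 of the HPSE values, medians and counts kept to within the extraction error or 1.5 times the count. Of the changes of the other member probes, 3 moved by more than the extraction error, HPSE2 A_24_P103893 without a floor (3.63 and 2.97) and SDC3 A_33_P3241884 in SMARCA4-KD2 with normexp (-0.27), and 119 did not. The error of the HPSE2 changes was 1.46, wide enough to take in most moves. Its values of 0.58 and 0.38 with normexp and 2.11 and 1.44 in the series-level table are thus among the 119. Without a filter, most probes of each array were not well above background, and those below the floor were raised to it. The median of all probes was then -0.15 in both knockdowns, with the members' own values as before. It was not read as a shift in expression. Slide as a block was not run, since scan and condition coincide. No paired analysis was possible because each condition has 1 array. With 1 array per condition no value has a replicate check.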
